A study of Mus musculus with 2 samples.

Results

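The 38 genes described here belong to the unfolded protein response and to the ATF4 response of mouse cells. They were chosen by name, with earlier results of these data known, and comprised 15 ER folding genes (chaperones, disulfide isomerases and their co-factors), 7 genes of ER-associated degradation (ERAD), 5 stress sensors and transcription factors, and 11 targets of ATF4. All 38 were among the 22911 genes named on the array, and all 38 were among the 13411 genes well above background on both arrays, so that none was lost to the filter on dim probes. The cells were LKS+ cells, a lineage-negative c-Kit+ Sca-1+ fraction of WT mouse BM, rich in hematopoietic stem cells and progenitors. One culture received SP-derived EVs of CML mice, in which the leukemia came from transplanted LKS+ cells transduced with a BCR-ABL retrovirus, and the other received SP-derived EVs of normal mice (control EVs). In both cultures the EVs were given at 150 μg/ml for 24 h, to cells that had been propagated in serum-free medium with SCF (100 ng/ml), IL-6 (10 ng/ml), IL-3 (10 ng/ml) and 1% BSA. The methods describe the EV donors of the array experiment as irradiated CML mice, which the sample labels do not mention, so that effects of leukemia and of donor irradiation cannot be told apart. The mice were young adult males, and the strain that gave the array cells is not stated in the sources used here.

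One Agilent array was hybridized with cyanine 3-labeled RNA of each culture, both on the same slide and in the same scan. With 1 array per condition the differences have no replicate check, and neither p-values nor standard errors were computed. Signals are background-subtracted intensities scaled to a mean of 2500 over the spots of an array without the upper and lower 2%, and a log2 ratio is the CML EV signal over the control EV signal. Of 59305 spots, 31635 (53.3%) were well above background with CML EVs and 32269 (54.4%) with control EVs, and none was saturated. As a technical scale, repeated spots of a probe gave log2 ratios with an SD of 0.034 (median of 272 probes whose log2 signal reached 8) or 0.16 (median of 11 dimmer probes). This covers spotting and scanning only, and not the spread between cultures.

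The unfolded protein response adjusts the folding capacity of the ER to its load. Its sensors sit in the ER membrane. IRE1 (Ern1) splices the mRNA of the transcription factor XBP1, ATF6 is released by cleavage as a transcription factor, and PERK (Eif2ak3) phosphorylates eIF2α. XBP1 and ATF6 act on genes of chaperones and ERAD, many of which carry an ER stress response element (ERSE) in the promoter. Phosphorylated eIF2α lowers general translation but raises that of ATF4, and other kinases that sense amino acid shortage, heme shortage or viral RNA lead to the same step. ATF4 acts on genes of amino acid synthesis and transport and on CHOP (Ddit3), often through a C/EBP-ATF response element. Secretory cells such as plasma cells depend on the XBP1 arm, and protein synthesis is kept low in hematopoietic stem cells. The probes measured total mRNA, so that neither Xbp1 splicing, ATF6 cleavage, eIF2α phosphorylation nor ATF4 protein was measured.

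Stretches of the promoters of some members are printed because the ER folding genes and ATF4 targets, which differed in their ratios below, also differed in these letters. RefSeq promoter windows (GRCm38.p6) of 300 bases, 250 before and 50 after the start of the gene, were at hand for 33 of the 38 members and searched on both strands. Atf6, Hyou1, Manf, Derl1 and Slc7a5 were not analysed here. The ERSE letters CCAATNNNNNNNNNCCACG were found in 0.119% of all 32851 windows, but in 7 of 13 ER folding genes (Hspa5, Hsp90b1, Calr, Canx, Pdia6, Dnajc3 and Creld2) and 2 of 6 ERAD genes (Syvn1 and Derl3). They were found in 0 of 4 sensors and transcription factors and in 0 of 10 ATF4 targets. Counted by gene, as for the members, the share was 0.137% of all genes with a window. The members were chosen by name as genes of this response, so that the contrast with all windows is a description and not a test. In the following 5 stretches, chosen from the members with the highest ratios, the capitals mark the ERSE. The stretch of Hspa5 lies at chr2:34772005-34772063 (+ strand), that of Calr at chr8:84847055-84847113 (- strand), that of Creld2 at chr15:88819500-88819558 (+ strand), that of Syvn1 at chr19:6046512-6046570 (+ strand) and that of Derl3 at chr10:75893222-75893280 (+ strand). All are written along the gene, so that an element on the opposite strand begins with CGTGG.
Hspa5: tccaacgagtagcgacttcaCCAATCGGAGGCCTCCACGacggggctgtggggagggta
Calr: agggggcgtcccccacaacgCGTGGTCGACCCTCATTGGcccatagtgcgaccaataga
Creld2: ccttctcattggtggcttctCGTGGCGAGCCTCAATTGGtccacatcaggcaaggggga
Syvn1: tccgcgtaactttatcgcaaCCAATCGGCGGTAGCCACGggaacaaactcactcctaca
Derl3: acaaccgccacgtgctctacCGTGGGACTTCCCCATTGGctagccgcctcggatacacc

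The C/EBP-ATF response element, searched as TGATGNAA, was found in 3.97% of all windows and in 4.51% of all genes with a window. It was found in 4 of 10 ATF4 targets (Trib3, Chac1, Asns and Slc7a11, with a pair of elements in Slc7a11) and in 0 of 13 ER folding genes. The ERAD gene Herpud1 held it too, beside the related element ERSE-II (ATTGGNCCACG), which was found in 0.0365% of windows and in 1 further member, Dnajb11. ERSE and ERSE-II end in the same letters, CCACG, but no member held both. The UPR element TGACGTGG was found in 0.676% of windows and in 0 members. The stretches of the 4 ATF4 targets, with the element in capitals, lie at chr2:152344029-152344056 (- strand) for Trib3, chr2:119351039-119351066 (+ strand) for Chac1, chr6:7693215-7693242 (- strand) for Asns and chr3:50443662-50443689 (- strand) for the first element of Slc7a11. The element of Trib3 begins 14 bases after the start of the gene, and the others lie before the start.
Trib3: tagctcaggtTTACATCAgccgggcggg
Chac1: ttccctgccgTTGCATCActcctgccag
Asns: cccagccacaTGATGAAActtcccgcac
Slc7a11: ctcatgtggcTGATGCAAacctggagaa
A match describes these letters only and does not show binding.

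Across the 38 members, 29 had a higher signal with CML EVs than with control EVs and 9 a lower one, with a median log2 ratio of 0.09 (1.06-fold). Over all 13411 genes, 51.9% were higher and the median was 0.01. Most differences were small. Derl3 was the only member at least 25% higher, as were 5.01% of all genes, and 0 members were at least 20% lower, as were 5.25% of all genes. At a fold of 1.1, 10 members were higher, beside 17.3% of all genes, and 3 were lower, beside 17.2% of all genes. The 3 lower ones were all ATF4 targets and the 10 higher ones were all ER folding or ERAD genes. Fewer cells of a type and less RNA per cell cannot be told apart in such bulk samples. Which way a gene leaned also moved with its brightness. Of the 6705 genes with a signal above the median, 58.9% were higher with CML EVs, and in the brightest of 4 equal groups, which held 11 of the 15 ER folding genes and 6 of the 11 ATF4 targets, 62.3% were higher and the median log2 ratio was 0.03.

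**Figure D1:**
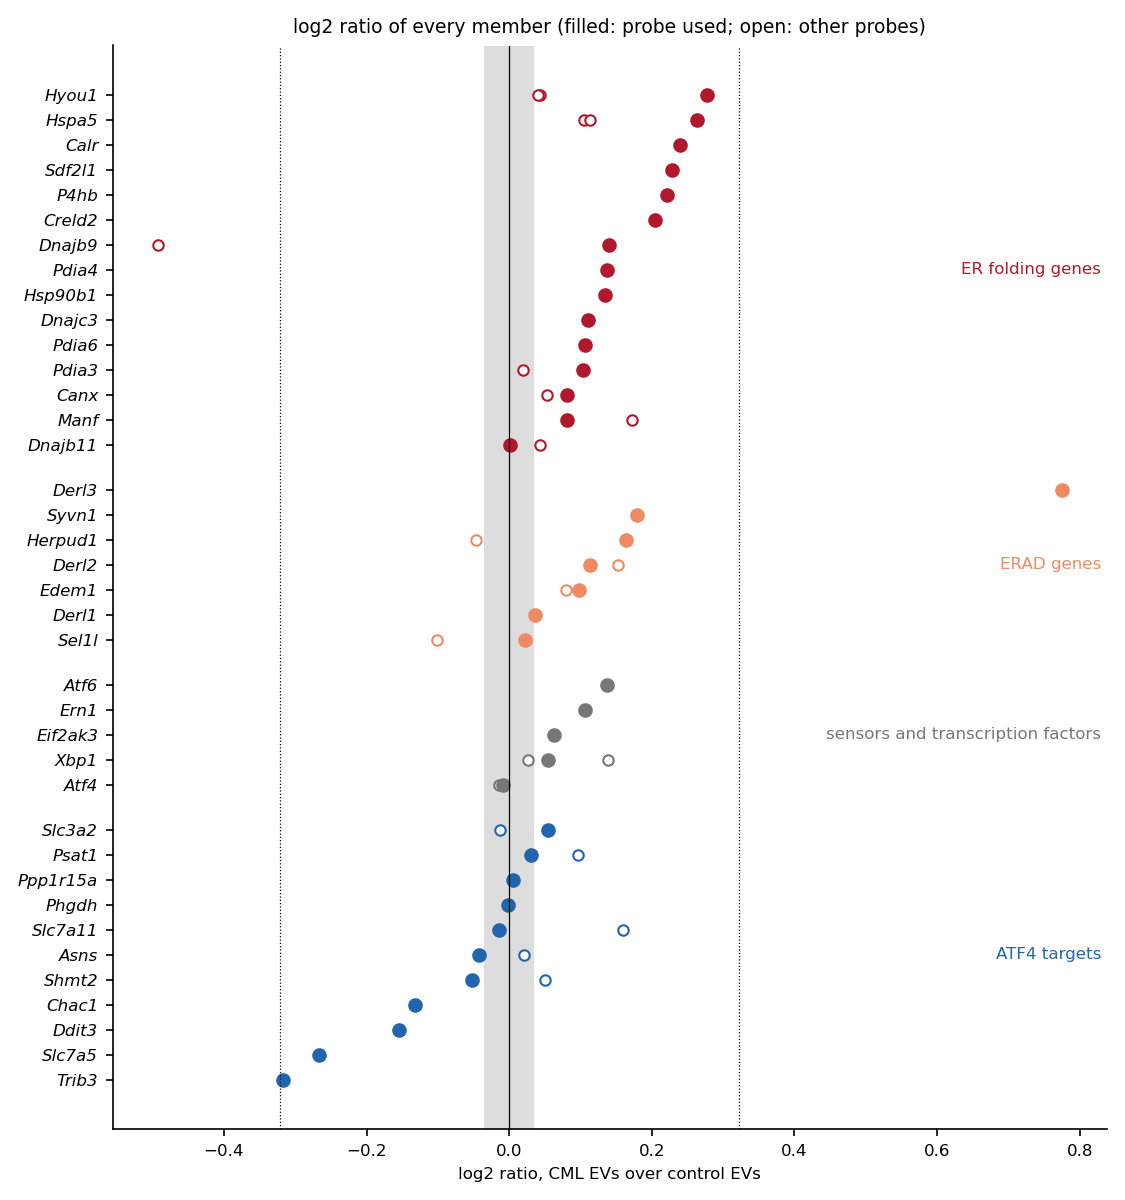
Log2 ratio, CML EVs over control EVs (x axis), for each of the 38 members (rows, grouped by role). Filled points are the probe used for a gene and open points its other probes well above background. The grey band spans 0.034 either side of 0, the SD of repeated spots for probes whose log2 signal reached 8 (0.16 for dimmer probes). The dotted lines mark 20% lower and 25% higher. The filled points of the ER folding and ERAD genes lie at or right of 0 and those of 8 of the 11 ATF4 targets left of it, while open points of Dnajb9, Herpud1 and Sel1l lie left of 0.

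The 15 ER folding genes were all at or above a log2 ratio of 0, at a median of 0.14 (1.1-fold), with values between 0.0004 and 0.28 and an SD of 0.08 over the genes. The highest ratio of the group belonged to Hyou1, an HSP70-type chaperone of the ER lumen, with a signal of 226 with CML EVs and 187 with control EVs (log2 ratio 0.28). Its other probes, however, gave 87.5 and 145 with CML EVs against 84.9 and 141 with control EVs, a log2 ratio of 0.04 for each. Hspa5, which encodes BiP, the main HSP70 of the ER and the partner that holds the sensors inactive, had 31384 with CML EVs and 26149 with control EVs (0.26, 1.20-fold). Its other probes lay in the same direction at 0.11 each, with 6690 and 4578 with CML EVs against 6219 and 4231 with control EVs. The size for Hspa5 and Hyou1 thus depended on the probe, while all of their probes lay above 0. The probes of Hyou1 were dim, however. Repeated spots of such dim probes had an SD of 0.16, so that a log2 ratio of 0.04 does not settle the side.

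Calr, the lectin chaperone calreticulin, which also binds calcium, had 21255 with CML EVs and 18000 with control EVs (log2 ratio 0.24). Its membrane-bound relative Canx was closer to 0, at 20837 with CML EVs and 19693 with control EVs (0.08), and Pdia3, the disulfide isomerase that works with both, had a log2 ratio of 0.10. Sdf2l1, a partner of the BiP cycle in the ER, had 3653 with CML EVs and 3119 with control EVs (0.23). The signal of P4hb, the classical protein disulfide isomerase, was 18704 with CML EVs and 16041 with control EVs (0.22). Calr, Sdf2l1 and P4hb had 1 probe each, so that no other probe bears on them.

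Among the remaining folding genes, Creld2, a disulfide isomerase-like protein, stood at a log2 ratio of 0.20 and the isomerases Pdia4 and Pdia6 at 0.14 and 0.11. Hsp90b1, the HSP90 of the ER (GRP94), had a log2 ratio of 0.13, Manf, a secreted protein that binds BiP, 0.08, and Dnajc3, a J-domain co-chaperone of BiP, 0.11. Dnajb9 (ERdj4), another J-domain co-chaperone, had 552 with CML EVs and 501 with control EVs (0.14), but its dimmer probe lay on the other side of 0, at 40.6 with CML EVs and 57.2 with control EVs (-0.49). Dnajb11 (ERdj3) was level, with 4530 with CML EVs and 4528 with control EVs (0.0004). The plot of signals shows the narrow but one-sided gaps of this group.

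**Figure D2:**
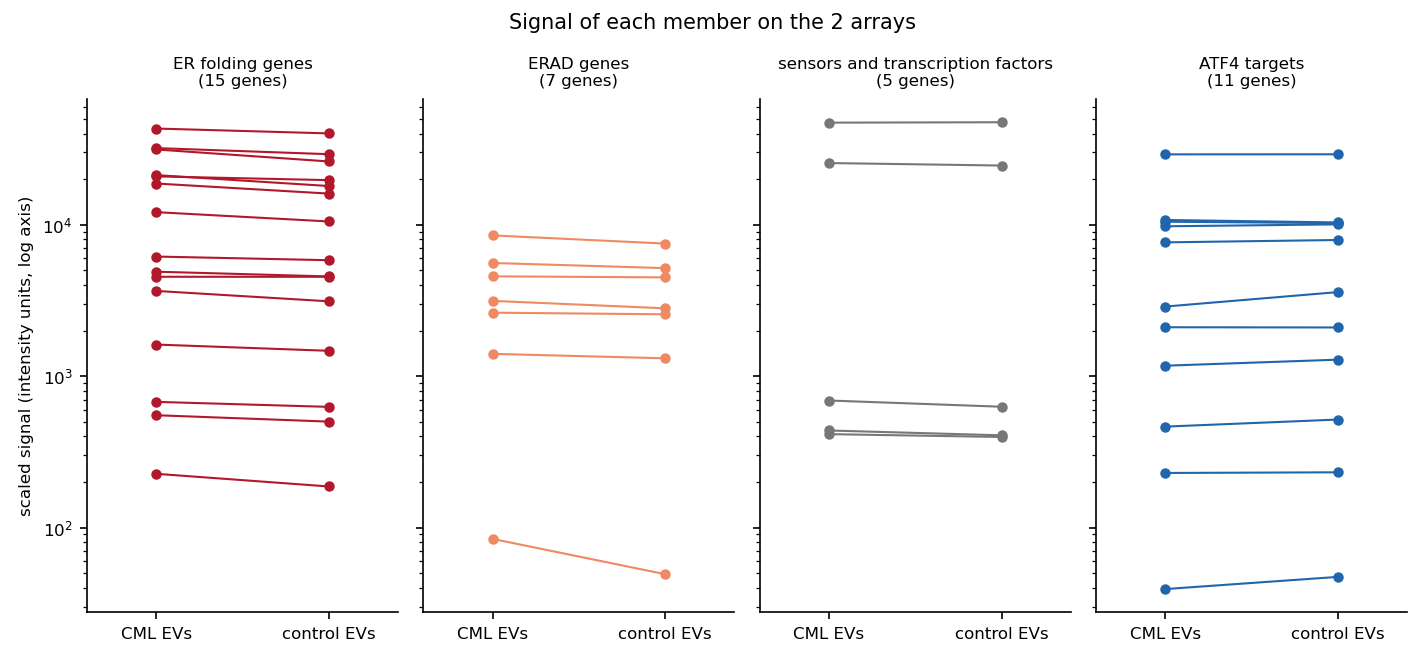
Scaled signal (log axis) of every member with CML EVs (left of each pair) and with control EVs (right of each pair), 1 array each, by role. The lines of the ER folding genes slope down to the control EV side or are level, while those of Trib3, Slc7a5, Ddit3 and Chac1 slope up to it.

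All 7 ERAD genes, whose products bring misfolded proteins back to the cytosol for degradation, also lay above 0, at a median log2 ratio of 0.11. Derl3, a derlin of the ER membrane that is abundant in secretory cells, had 84.2 with CML EVs and 49.2 with control EVs (0.77, 1.71-fold), the farthest from 0 of the 38. It is a dim gene with 1 probe, and its log2 ratio was 0.36 after normexp background correction. Syvn1, the ubiquitin ligase HRD1, had 8497 with CML EVs and 7505 with control EVs (0.18). Its partner Sel1l was nearly level at 4560 with CML EVs and 4488 with control EVs (0.02), and its dimmer probe read 128 with CML EVs and 138 with control EVs (-0.10). Herpud1, a membrane protein that assists HRD1, had 3141 with CML EVs and 2803 with control EVs (0.16), whereas its other probe gave 818 with CML EVs and 845 with control EVs (-0.05). The derlins Derl2 and Derl1 had log2 ratios of 0.11 and 0.04, and Edem1, a lectin-like protein that hands over misfolded glycoproteins, 0.10. Without Derl3, the ERAD genes thus spanned 0.02 to 0.18, within the range of the folding genes.

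The sensors and transcription factors differed little, with 4 of 5 higher and a median log2 ratio of 0.06. Atf6 had 690 with CML EVs and 628 with control EVs (log2 ratio 0.14), and Ern1 had 438 with CML EVs and 407 with control EVs (0.11). Eif2ak3 (PERK) was at 414 with CML EVs and 396 with control EVs (0.06). Total Xbp1 signal was 25529 with CML EVs and 24582 with control EVs (0.05), and the other probes of Xbp1 gave 0.14 and 0.03. Atf4 itself was level on both of its probes, with 47185 and 3077 with CML EVs against 47482 and 3108 with control EVs, a log2 ratio of -0.01 for each. None of the 5 reached a fold of 1.1 in either direction.

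The ATF4 targets leaned the other way from the folding genes, with 8 of 11 lower and a median log2 ratio of -0.04 (1.03-fold lower with CML EVs), though this median was 0.03 with scaling to the array median, where the median of all genes was 0.08. Trib3, a pseudokinase that ATF4 and CHOP induce, had 2879 with CML EVs and 3588 with control EVs (-0.32), just short of being 20% lower. Slc7a5, the light chain of the LAT1 transporter of large neutral amino acids, had a dim 39.2 with CML EVs and 47.2 with control EVs (-0.27), and -0.15 after normexp background correction. Ddit3, which encodes the transcription factor CHOP, had 464 with CML EVs and 517 with control EVs (-0.15), and Chac1, an enzyme that degrades glutathione, had 1172 with CML EVs and 1285 with control EVs (-0.13). These 4 genes kept their sign under every alternative run for them, but they had no other probe, so that the choice of probe could not move them.

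The other 7 targets were close to 0 on the probes used, between -0.05 and 0.05. Asns, the asparagine synthetase, had 9759 with CML EVs and 10048 with control EVs (log2 ratio -0.04), and Shmt2, the mitochondrial enzyme that turns serine into glycine, had 7644 with CML EVs and 7924 with control EVs (-0.05). Their other probes read 0.02 and 0.05. Slc7a11, the cystine transporter xCT, had 229 with CML EVs and 232 with control EVs (-0.01), while its dimmer probe had 113 with CML EVs and 101 with control EVs (0.16). Slc3a2, the heavy chain shared by LAT1 and xCT, had 10742 with CML EVs and 10348 with control EVs (0.05), and -0.01 on its other probe. In the serine pathway, Psat1 had 10463 with CML EVs and 10241 with control EVs (0.03), with 0.10 on its other probe, and Phgdh, the first enzyme of the pathway, had -0.0015. Ppp1r15a (GADD34), which directs the removal of phosphate from eIF2α, had 0.005. The lower values of the ATF4 targets thus lay in Trib3, Slc7a5, Ddit3 and Chac1.

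Set beside each other, the ER folding genes lay above the ATF4 targets by 0.18 on the log2 scale (difference of medians), and 14 of the 15 folding genes lay above the highest ATF4 target, Slc3a2. The gap depended on the probes. Where a gene had several probes, the values above come from the one brightest with CML EVs. The probe brightest with control EVs was the same one for every member, so taking it instead could not change the medians. For 7 folding genes and 5 ATF4 targets, another probe passed the filter on both arrays. On those other probes 8 of 9 for folding genes were above 0 at a median of 0.04 over the genes, 4 of 5 for ATF4 targets were above 0 at a median of 0.05, and the difference was -0.01. The 0.05 was the value of Shmt2, whose other probe was dim, at 75.3 with CML EVs and 72.7 with control EVs. The other probes of Slc7a11, Hyou1 and Dnajb9 were dim as well. Repeated spots of such dim probes had an SD of 0.16, so that a difference of -0.01 does not settle which group lay higher. On the probes used, the same 7 folding genes had a median of 0.10 and the same 5 targets one of -0.01. The ATF4 targets Trib3, Slc7a5, Ddit3, Chac1, Phgdh and Ppp1r15a had no other probe. Nor had the folding genes Calr, Sdf2l1, P4hb, Creld2, Hsp90b1, Pdia4, Pdia6 and Dnajc3. Over all 59 member probes well above background, 23 of 24 for folding genes and 7 of 16 for ATF4 targets were higher with CML EVs, where 51.2% of 19621 named probes were.

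**Figure D3:**
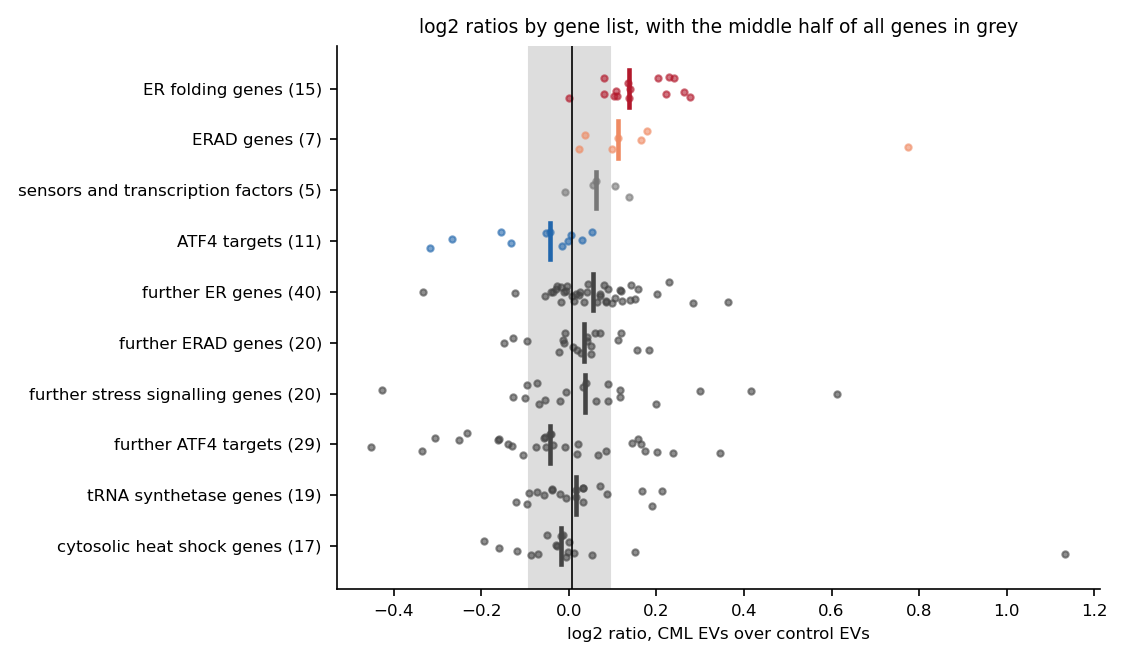
Log2 ratio, CML EVs over control EVs, by gene list: the 4 member groups and the 6 wider pathway lists, with the number of genes in parentheses, points for genes, bars for the median, a grey band for the middle 50% of all genes and a line at their median. The medians of the ER folding genes (0.14) and ERAD genes (0.11) lie highest and those of the ATF4 targets and further ATF4 targets (both -0.04) lowest.

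Wider lists of the same pathways held none of the 38 members. Of 40 further ER genes, covering glycosylation, translocation, oxidation and traffic, 28 were higher with CML EVs and 12 lower, at a median log2 ratio of 0.05. Ero1a, the oxidase that recharges the disulfide isomerases, had 11410 with CML EVs and 8866 with control EVs (0.36, 1.29-fold). Uggt1, which sends unfolded glycoproteins back to calnexin and calreticulin, had 9153 with CML EVs and 7519 with control EVs (0.28), while Fkbp11, a dim prolyl isomerase gene, had 23.4 with CML EVs and 29.4 with control EVs (-0.33). Of 20 further ERAD genes 13 were higher and 7 lower, at a median of 0.03, led by the ubiquitin-conjugating enzyme Ube2j1 (0.18), the ER membrane selenoprotein Selenos (0.15) and the ubiquitin ligase Rnf139 (-0.15). Folding and further ER genes together came to 43 higher and 12 lower of 55, with a median of 0.08, and the 43 included all 15 folding genes. For comparison, 51.9% of all genes and 58.9% of the genes with a signal above the median were higher. Minus the median of genes of like signal, the median was 0.03 for the further ER genes and 0.01 for the further ERAD genes, against 0.12 for the folding genes.

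Of 20 further stress signalling genes, 11 were higher and 9 lower, at a median log2 ratio of 0.04. The 3 farthest from 0 were dim members of the CREB3 family of membrane-bound transcription factors, with 20.5 with CML EVs and 13.4 with control EVs for Creb3l3 (0.61), 42.6 with CML EVs and 57.1 with control EVs for Creb3l1 (-0.43), and 21.9 with CML EVs and 16.5 with control EVs for Creb3l4 (0.41). Next came Eif2ak2, the double-stranded RNA-dependent eIF2α kinase PKR, at 2233 with CML EVs and 1814 with control EVs (0.30). PKR is also an interferon-induced gene. The stress genes as a whole thus showed no common side.

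Of the 29 measured further ATF4 targets, 11 were higher and 18 lower, at a median log2 ratio of -0.04. The 11 members had the same median, and here too the median turned to 0.03 with scaling to the array median. At a fold of 1.1, however, 7 further targets were higher and 8 lower, against 0 and 3 of the 11 members. Of all genes, 17.3% were higher and 17.2% lower at that fold. Aldh1l2, a mitochondrial folate enzyme, had 103 with CML EVs and 141 with control EVs (-0.45), and Cbs, which makes cystathionine from homocysteine, 46.7 with CML EVs and 58.8 with control EVs (-0.33). Atf3, a stress-induced transcription factor with inducers besides ATF4, had 1307 with CML EVs and 1029 with control EVs (0.34), opposite to Ddit3 and Trib3. The 19 matched tRNA synthetase genes were split 10 to 9 at a median of 0.02, with Farsa (0.21), Dars (0.19) and Qars (0.17) farthest from 0. Of 17 cytosolic heat shock genes, 5 were higher and 12 lower at a median of -0.02, which also turned above 0, to 0.05, with scaling to the array median. Hspa1a, an inducible HSP70, had 50.1 with CML EVs and 22.8 with control EVs (1.13), whereas its close copy Hspa1b had 19.2 with CML EVs and 21.4 with control EVs (-0.16), and the 2 genes are near-identical in sequence, so that their probes may share targets. Cryab, a small heat shock protein, was at -0.19.

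The ratios of folding genes with and without the ERSE overlapped. The 7 folding genes with the ERSE had a median log2 ratio of 0.13 (0.08 to 0.26) and the 6 without it 0.14 (0.0004 to 0.23). Of all 19 measured genes with the ERSE letters in their window, 15 were higher at a median of 0.10, but without the 9 members, 6 of 10 were higher at a median of 0.01, where 52.7% of the genes without the letters were higher at 0.01. Among the ATF4 targets, the 4 genes with the C/EBP-ATF response element had a median of -0.09 (-0.32 to -0.01). The 6 without it had a median of 0.0017 (-0.15 to 0.05). Trib3 and Chac1 held the element and Ddit3 did not, though Trib3 (-0.32), Chac1 (-0.13) and Ddit3 (-0.15) were all lower with CML EVs. Over all 315 measured genes with the C/EBP-ATF element, 177 were higher and the median was 0.02. Of the genes without it, 52.6% were higher at a median of 0.01. For ERSE-II, 3 of 9 measured genes were higher at a median of -0.07, and 1 of 7 without the members. Herpud1, with both ERSE-II and the C/EBP-ATF element, stood with the ERAD genes (0.16), and Dnajb11, with ERSE-II after its start, was level.

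**Figure D4:**
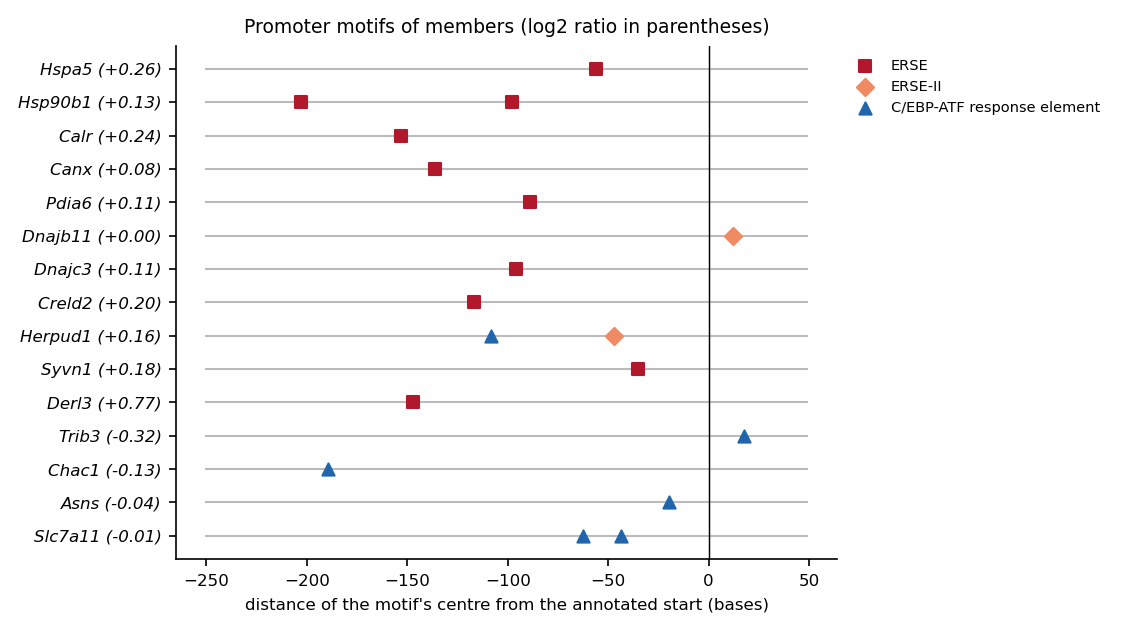
Position of each searched promoter element in the windows of the members that hold one (x axis, bases of its centre from the start of the gene), with the log2 ratio of each gene beside its name. The first base of the ERSE lies between 212 bases (Hsp90b1) and 44 bases (Syvn1) before the start, and the C/EBP-ATF elements are those of 4 ATF4 targets and Herpud1.

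Granule markers differed between the cultures by more than most members did. All 11 matched markers of primary granules and early neutrophils were higher with CML EVs, at a median log2 ratio of 0.75, and their summed signal was 461467 with CML EVs and 347082 with control EVs. Elane, neutrophil elastase, had 34735 with CML EVs and 15311 with control EVs (1.18). Late neutrophil markers were higher in 8 of 10 (median 0.60), with sums of 317908 with CML EVs and 241771 with control EVs and Mmp9 not well above background on either array. Stem and progenitor cell markers were lower in 13 of 15 (median -0.10), with sums of 54870 with CML EVs and 59688 with control EVs, and Mecom was not well above background on either array. Of the genes that define LKS+ cells, Kit had 1529 with CML EVs and 1646 with control EVs (-0.11), whereas Ly6a (Sca-1) had 1985 with CML EVs and 1548 with control EVs (0.36). Granule proteins are made in the ER in large amounts, and the part of the granule genes in the ER folding ratios was not tested.

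Plasma cells, which express many of the ER genes highly, had few measured markers. Of 12 plasma cell and B cell markers 5 were measured on both arrays, 4 of them lower with CML EVs (median log2 ratio -0.19). The sums of the 5 were 1049 with CML EVs and 1083 with control EVs. All 4 lower ones were dim, with a log2 signal under 8, where repeated spots had an SD of 0.16. The brightest of the 5, Cd79b, had 751 with CML EVs and 734 with control EVs (0.03). Mzb1, Tnfrsf17, Cd79a and Ms4a1 were not well above background on either array, and Jchain had 25.3 with CML EVs and 37.8 with control EVs. Mast cell and basophil markers were split, with 7 of 12 higher (median 0.04; sums 58051 with CML EVs and 55174 with control EVs), and monocyte and macrophage markers were higher in 7 of 11 (median 0.05; sums 82736 with CML EVs and 64678 with control EVs). Most of the gap between the monocyte sums lay in Ly6c2, at 47021 with CML EVs and 30081 with control EVs (0.64).

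**Figure D5:**
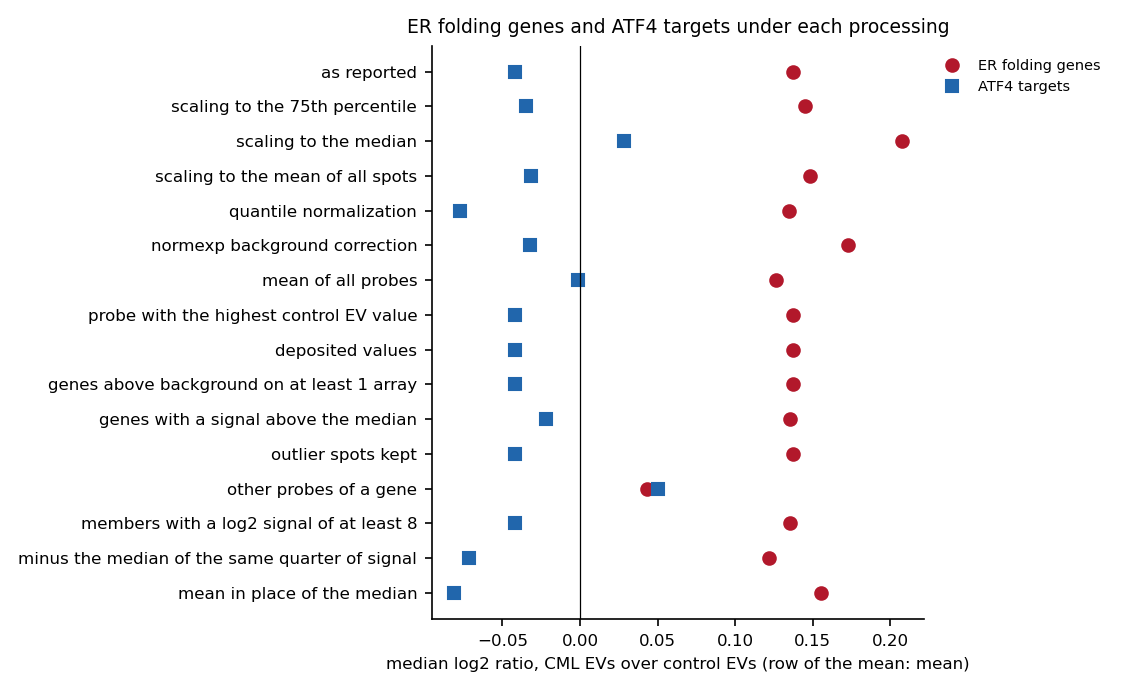
Median log2 ratio, CML EVs over control EVs, for the ER folding genes and the ATF4 targets under each processing alternative (rows, with means in the last). The folding genes stay above 0 in every row, between 0.04 and 0.21, while the ATF4 targets run between -0.08 and 0.05 and exceed the folding genes only on the other probes of a gene.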

How the data were processed

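LKS+ cells given CML EVs or control EVs were measured on 1 one-colour array each. The deposited scanner files give a processed intensity per spot, which the authors obtained with Agilent Feature Extraction 12.0.3.1 (submitters' processing notes) after background subtraction. The deposited value table equals this intensity times 1 factor per array (largest relative deviation 4.96e-10). Control spots and outlier spots (88 with CML EVs, 95 with control EVs) were left out, and arrays were scaled as the methods state (mean of 2500 without the upper and lower 2%). RefSeq accessions without version (GRCm38.p6 gene table) named 32994 of 56604 probes, and each gene took its probe brightest with CML EVs. Genes counted if well above background on both arrays.

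Members and lists were chosen with earlier results of these data known. Full values are given for the 6 members with the highest and the 6 with the lowest ratio, members at least 25% higher or 20% lower, members whose probes lie on opposite sides of 0 and the sensors, and for the 3 genes farthest from 0 in each wider list. Eif2ak2 and the marker genes were named after their values were seen.

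Alternatives covered scaling (75th percentile, median, mean of all spots, quantile), normexp with an offset of 50 in limma 3.58.1, the deposited values, the choice of probe, filters on dim genes, outlier spots, the fold and the summary. The other probes of a gene, the log2 signal cut of 8 and the ratio minus the median of genes of like signal (4 equal groups) were added after seeing the data. The computation of ratios was checked with known folds put on the control array's values, for genes with a log2 signal of at least 8. That check covers neither dim genes nor the spread between cultures. R 4.3.3, Python 3.11.15, pandas 2.3.3 and numpy 2.4.6 were used. The number of arrays limits the precision. The protein ends planned with the promoter motifs were not analysed here.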

Additional observations from a re-analysis of the deposited data

How the results depend on the processing

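No paired analysis was possible because there was 1 array of each kind, and leaving out a replicate was not possible for the same reason. Of the 38 members, 27 kept their sign in every alternative run for them and 11 did not (Atf4, Phgdh, Ppp1r15a, Dnajb11, Sel1l, Slc7a11, Asns, Shmt2, Dnajb9, and on the other probes only Herpud1 and Slc3a2). Several alternatives could not move a member's ratio: the deposited values, kept outlier spots, the probe brightest with control EVs and the filters on dim genes. Members with no other probe could not move with the choice of probe either. With scaling to the array median, which moved the median of all genes to 0.08, median log2 ratios were 0.21 for ER folding, 0.18 for ERAD, 0.13 for sensors, 0.028 for ATF4 targets (7 of 11 higher), 0.13 for further ER, 0.10 for further ERAD, 0.11 for further stress signalling, 0.027 for further ATF4 targets, 0.087 for tRNA synthetase and 0.052 for cytosolic heat shock genes. There 3 members were at least 25% higher and 21 at least 1.1-fold higher. With quantile normalization the ATF4 targets were at -0.077, the further ERAD genes at -0.0019 and 1 member at least 20% lower. Normexp gave 0.17 for ER folding genes and 0.12 for sensors.

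On the other probes of a gene, medians were 0.043 for ER folding (6 of 7 genes higher), 0.017 for ERAD (2 of 4), 0.050 for ATF4 targets, 0.11 for further ATF4 targets, 0.081 for further ERAD and -0.019 for tRNA synthetase genes, the ER folding minus ATF4 difference was -0.0075, and 1 of 2 sensors was higher. There 0 members were at least 25% higher and 1 lower, and 3 at least 1.1-fold higher and 1 lower. With the mean of all probes, ATF4 targets were at -0.0015, further ATF4 targets at -0.0084 and the difference at 0.13. With means over genes in place of medians, ATF4 targets were at -0.081, ERAD at 0.20, cytosolic heat shock genes at 0.034 and the difference at 0.24. With genes dimmer than the median left out, 0 members were at least 25% higher and 1 at least 1.1-fold lower, and 1 of 2 sensors was higher (median 0.023). With a log2 signal of at least 8, 0 members were at least 25% higher. Minus the median of genes of like signal, 1 was at least 20% lower. At a fold of 1.1 the counts were 10 higher and 3 lower. Counts fell where fewer genes entered by construction, and otherwise the cause was not tested.

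Over all genes, 672 were at least 25% higher and 704 at least 20% lower, against 990 and 470 with median scaling, 980 and 1127 counting genes above background on either array, 336 and 174 with normexp, 154 and 35 above the median signal, 250 and 254 on the other probes, 239 and 107 at a log2 signal of 8, 2318 and 2310 at a fold of 1.1, and 204 and 158 at a fold of 1.5. Dim genes such as Derl3, Slc7a5 and Hyou1 are limited by signal over background.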
